A study of Mus musculus with 4 samples.

Results

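The 35 genes described here encode the cytosolic and mitochondrial heat shock chaperones and the helpers of their cycle: 7 proteins of the Hsp70 and Hsp110 families, 8 Hsp90 proteins and Hsp90 co-chaperones, 8 J proteins, 4 subunits of the chaperonin TRiC, 3 mitochondrial chaperones, 2 BAG proteins, 1 small heat shock protein and 2 heat shock transcription factors. They were chosen by name, with earlier results of these data known, and they make up 35 of the 32285 genes counted. The data are UMI counts (unique molecular identifiers, 1 per captured RNA molecule) of single nuclei from the paraventricular nucleus of the hypothalamus (PVN) of male C57Bl6 mice. Tissue was taken at zeitgeber time 8 (ZT8, day) or zeitgeber time 20 (ZT20, night). The sample labels give an age of 10 weeks, the series' design text 10 to 12, and neither names a genetic change or a drug. Each library pooled micropunches from 5 PVNs, with 2 libraries per time. The labels do not say whether replicate libraries hold different animals, so each p-value here covers library-to-library spread alone, which may be technical.

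Hsp70 proteins bind unfolded stretches of client proteins in an ATP-driven cycle that J proteins start and that BAG proteins and Hsp110 proteins, which exchange the nucleotide, reset. Hsp90 takes over late folding intermediates, such as steroid receptors and kinases, with co-chaperones that carry clients from Hsp70 or tune its ATPase. TRiC folds actin and tubulin in a closed chamber, and mitochondria have their own Hsp70, Hsp60 and Hsp10. Heat shock factors bind repeats of the letters GAA, in alternating orientation, in the promoters of many of these genes.

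The libraries held 6453 to 9413 barcodes and 57970649 to 69223344 UMIs each, and the ZT20 libraries stood apart in depth and in cell makeup. After filtering, 6053 to 8667 nuclei were kept per library, and barcodes with fewer than 2000 UMIs were 29.1 and 27.5% of all barcodes at ZT8 and 39.3 and 47.3% at ZT20. Clusters were named from marker genes. In each library 2349 to 2800 nuclei were neuron-like, 393 to 429 astrocyte-like and 480 to 971 oligodendrocyte-like. Clusters of no named class held 32.8 and 34.4% of kept nuclei at ZT8 and 45.0 and 53.0% at ZT20. Among neurons, the 6 thalamic markers summed to 5958 and 6087 CPM at ZT8 and 4289 and 4183 CPM at ZT20, and the 4 GABAergic markers to 199 and 192 CPM at ZT8 and 293 and 306 CPM at ZT20 (CPM, UMIs scaled so that each set of each library sums to 1000000). The 6 markers of PVN neurons (Sim1, Otp, Avp, Oxt, Crh, Trh) summed to 15.6 and 28.7 CPM at ZT8 and 206 and 192 CPM at ZT20 in the same nuclei, and PVN-like clusters held 1 and 2 neurons at ZT8 against 29 and 25 at ZT20. Tanycyte-like nuclei numbered 1 and 1 at ZT8 against 92 and 95 at ZT20. An unnamed cluster led by Acta2 and Myh11 held 82 and 82 nuclei at ZT8 against 2 and 3 at ZT20. In this design an effect of time cannot be told apart from a difference in the tissue that the punches took. Below, rose and fell mean higher and lower at ZT20. Pairs of libraries shared 10 to 25 barcodes.

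In neuron-like nuclei most chaperone genes were higher at ZT20 than at ZT8, by small amounts that both pairs of libraries showed. 24 of 35 members rose and 1 fell, against 21.9% of the 19500 genes tested that were called higher and 21.6% called lower (edgeR quasi-likelihood test, adjusted p under 0.05 over all genes tested). The members' median log2 change was 0.21, while that of all genes tested was 0.01. Summed over the 35 genes, neuron-like nuclei had 1921 and 1960.5 CPM at ZT8 and 2297 and 2297 CPM at ZT20. Both ZT20 sums lay above both ZT8 sums. The plot of 9 members by library shows the separation of the 4 libraries gene by gene.

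**Figure D1:**
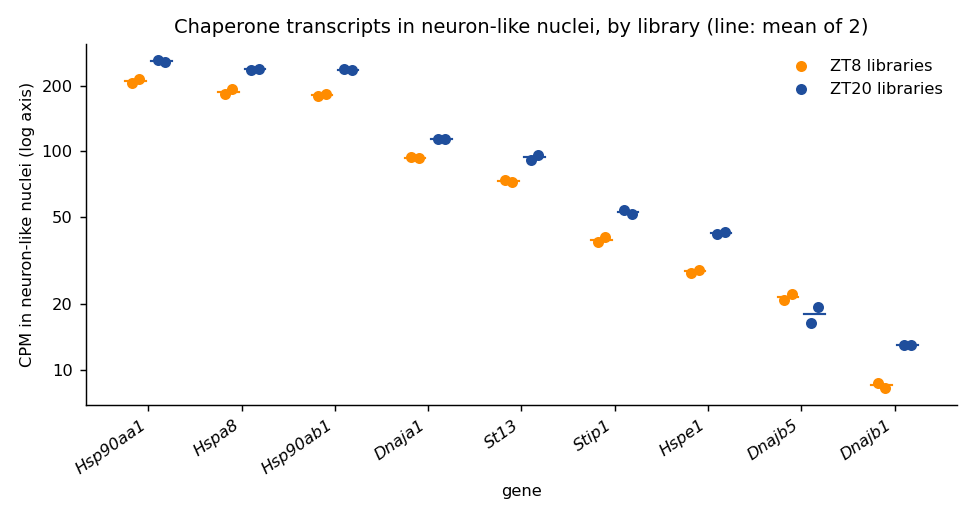
CPM of 9 members in neuron-like nuclei (log axis), 1 point per library and a line at the mean of 2 libraries. For 8 genes both ZT20 libraries (blue) lie above both ZT8 libraries (orange); for Dnajb5 they lie below.

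The heat shock factors themselves did not pass the test. Hsf1, the factor that drives the acute heat shock response, stood at 39.0 and 36.7 CPM in the ZT8 libraries and 36.6 and 39.5 CPM in the ZT20 libraries, and Hsf2, which can pair with it, at 41.7 and 42.1 CPM in the ZT8 libraries and 41.7 and 43.6 CPM in the ZT20 libraries. The libraries of both times overlapped for both genes, with log2 changes of -0.05 ± 0.05 (SE) and -0.03 ± 0.04.

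Promoter letters for heat shock factors were looked up because most members moved together. RefSeq windows of 250 bases before to 50 after a start (GRCm38.p6) matched 29 of 35 members (not Hspa8, Hsp90aa1, Hsp90ab1, St13, Hspa9 and Hsf1). The 3-unit heat shock element, GAA, TTC and GAA in a row with 2 free bases between neighbours, or TTC, GAA and TTC in the same way, was in windows of 5 of the 29 members (Chordc1, Dnajb6, Hspd1, Hspe1 and Hsph1) and of 0.662% of 27025 genes. The 2-unit form, GAA and TTC or TTC and GAA with 2 free bases between, which the longer form contains, was in 15 of 29 members (51.7%) and in 17.0% of genes. The spellings of the 3-unit form are each other's reverse complement and each 2-unit spelling is its own, so both strands were covered. A match describes the letters of a window and is no sign of binding, and its relation to the changes between times was not tested.

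The 250 bases upstream of 4 members are shown, with matches in capitals, since they carry 2 contrasts: Hspe1 and Dnajb6 hold the 3-unit form, while the near-identical Hspa1a and Hspa1b (247 of 250 bases alike) hold only the 2-unit form in this window.
Hspe1 promoter, chr1:55087898-55088147, plus strand: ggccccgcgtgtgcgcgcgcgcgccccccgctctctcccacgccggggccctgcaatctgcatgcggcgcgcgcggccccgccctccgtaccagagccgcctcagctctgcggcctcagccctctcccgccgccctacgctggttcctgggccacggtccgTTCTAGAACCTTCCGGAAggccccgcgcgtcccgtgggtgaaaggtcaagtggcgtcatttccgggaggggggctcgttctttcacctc
Dnajb6 promoter, chr5:29735648-29735897, plus strand: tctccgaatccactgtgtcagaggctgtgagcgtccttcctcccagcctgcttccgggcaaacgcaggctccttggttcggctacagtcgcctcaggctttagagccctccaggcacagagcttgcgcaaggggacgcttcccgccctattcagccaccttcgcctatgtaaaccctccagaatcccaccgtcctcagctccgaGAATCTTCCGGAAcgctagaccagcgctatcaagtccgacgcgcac
Hspa1a promoter, chr17:34972157-34972406, minus strand: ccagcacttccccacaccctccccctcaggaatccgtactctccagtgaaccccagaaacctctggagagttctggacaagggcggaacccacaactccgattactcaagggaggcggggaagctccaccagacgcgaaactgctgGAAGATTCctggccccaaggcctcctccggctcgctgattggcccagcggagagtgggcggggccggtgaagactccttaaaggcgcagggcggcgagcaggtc
Hspa1b promoter, chr17:34959239-34959488, minus strand: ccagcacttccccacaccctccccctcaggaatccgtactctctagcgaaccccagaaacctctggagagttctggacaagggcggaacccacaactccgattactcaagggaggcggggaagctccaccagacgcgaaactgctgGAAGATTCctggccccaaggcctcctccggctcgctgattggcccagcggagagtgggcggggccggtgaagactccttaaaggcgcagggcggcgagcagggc
In Hspe1 the capitals are 2 overlapping matches, and because the gene lies head to head with Hspd1 the same letters, on the other strand, lie in a window of Hspd1. In Chordc1 and Hsph1 the 3-unit letters lie at or just after the start, and 30 bases around them are shown.
Chordc1 start, chr9:18292260-18292289, plus strand: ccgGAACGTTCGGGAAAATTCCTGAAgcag
Hsph1 start, chr5:149636279-149636308, minus strand: gctgcagaTTCTGGAAAGTTCtcctcagta
In Chordc1 the capitals are 3 overlapping matches, and in Hsph1 they are 1.

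Of the Hsp70 and Hsp110 genes, 5 of 7 rose in neuron-like nuclei and none fell; at an unadjusted p under 0.05 one of the 7, Hspa4l, was lower. Hspa8, the constitutive Hsp70 that also uncoats clathrin vesicles, had 182 and 193 CPM in the ZT8 libraries and 237 and 239 CPM in the ZT20 libraries (log2 change 0.29 ± 0.03 (SE), adjusted p = 5.17e-09). Both ZT20 libraries stood above both ZT8 libraries. The Hsp110 nucleotide exchange factors rose less, Hsph1 by 0.13 ± 0.03 (SE) on the log2 scale and Hspa4 by 0.12 ± 0.03. Hspa4l, another Hsp110, had 131 and 133 CPM in the ZT8 libraries and 132 and 133 CPM in the ZT20 libraries, with a log2 change of -0.05 ± 0.03 that did not pass (adjusted p = 0.0916). Hspa2, best known for its role in male germ cells, did not pass either (0.30 ± 0.20).

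The stress-inducible Hsp70 genes Hspa1a and Hspa1b were scarce and had the largest fitted changes. Hspa1a gave 38 and 38 UMIs in all neuron-like nuclei of the ZT8 libraries and 68 and 66 in those of the ZT20 libraries (log2 change 0.75 ± 0.21 (SE), adjusted p = 0.00532). Hspa1b gave 8 and 9 against 17 and 22 UMIs (log2 change 1.13 ± 0.41 (SE), adjusted p = 0.0297). Both ZT20 libraries were above both ZT8 libraries for each gene. Neither call held when every neuron cluster gave the same number of nuclei in each library: the log2 changes were then 0.59 and 1.09. The call for Hspa1a was also lost with DESeq2, with thinning, and without ZT8 replicate 2. That for Hspa1b was also lost without ZT8 replicate 1, ZT8 replicate 2 or ZT20 replicate 2. Results for Hspa1b exist under 9 alternatives, against 11 for Hspa1a, so its call was not checked under all of them. The pair are single-exon neighbours on chromosome 17 (chr17:34969190-34972156 and chr17:34956436-34959238, GENCODE M21 on mm10). Their coding sequences were 99.4% identical over 1926 aligned bases and their 3' untranslated parts, which a 3' assay mostly reads, 45.5%; how the counting divided reads that fit both genes is not given in the sources used here, so the split between them is uncertain.

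Among the J proteins, which hand clients to Hsp70, 5 of 8 rose and 1 fell. Dnajb1, the main partner of inducible Hsp70, had 8.70 and 8.20 CPM in the ZT8 libraries and 12.9 and 12.9 CPM in the ZT20 libraries (log2 change 0.56 ± 0.08 (SE), adjusted p = 2.37e-06). Dnaja1, a farnesylated J protein, had 94.3 and 92.8 CPM in the ZT8 libraries and 113 and 114 CPM in the ZT20 libraries (log2 change 0.22 ± 0.03 (SE), adjusted p = 5.98e-07). In both genes the libraries separated by time with little spread within a time. Dnajb2, a J protein of neurons with ubiquitin-binding motifs, rose by 0.29 ± 0.05 (SE), Dnaja2 by 0.21 ± 0.03 and Dnajb6, a suppressor of polyglutamine aggregation, by 0.08 ± 0.03. The call for Dnajb6 was lost with DESeq2, RLE factors, equal nuclei per cluster, thinning, and without ZT8 replicate 2 or ZT20 replicate 2. Dnajb5 went the other way, with 20.7 and 22.2 CPM in the ZT8 libraries and 16.4 and 19.3 CPM in the ZT20 libraries (log2 change -0.32 ± 0.07 (SE), adjusted p = 5.48e-04). Its ZT20 values were lower in both libraries but differed from each other, as a ratio, by more than those of the 8 plotted genes that rose, and with equal nuclei per neuron cluster its log2 change was -0.08 and no longer passed. Dnaja4 and Dnajb4 did not pass (-0.06 ± 0.07 and 0.05 ± 0.03).

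All 8 Hsp90 proteins and co-chaperones rose in neuron-like nuclei, by 0.15 to 0.42 on the log2 scale. Hsp90ab1, the constitutive cytosolic Hsp90, had 178 and 184 CPM in the ZT8 libraries and 237 and 235 CPM in the ZT20 libraries (log2 change 0.33 ± 0.02 (SE), adjusted p = 1.31e-10). Its inducible sister Hsp90aa1 had 205 and 215 CPM in the ZT8 libraries and 261 and 256 CPM in the ZT20 libraries (log2 change 0.24 ± 0.02 (SE), adjusted p = 4.23e-08). Both isoforms stood higher in each ZT20 library than in either ZT8 library. Stip1 (Hop), which joins Hsp70 to Hsp90, had 38.2 and 40.5 CPM in the ZT8 libraries and 53.7 and 51.3 CPM in the ZT20 libraries (log2 change 0.36 ± 0.04 (SE), adjusted p = 2.42e-07). St13 (Hip), which holds Hsp70 in its ADP state, had 73.6 and 72.4 CPM in the ZT8 libraries and 91.2 and 96.5 CPM in the ZT20 libraries (log2 change 0.31 ± 0.03 (SE), adjusted p = 5.73e-08). Of the others, Ahsa1, the activator of the Hsp90 ATPase, had the largest log2 change (0.42 ± 0.06), and Chordc1 (0.19 ± 0.03), the immunophilin Fkbp4 (0.17 ± 0.05) and the p23 co-chaperone Ptges3 (0.15 ± 0.04) had smaller ones.

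Of the mitochondrial chaperones, 2 of 3 rose: Hspe1 (Hsp10), the lid of the folding chamber, and Hspd1 (Hsp60), the chamber itself. Hspe1 had 27.7 and 28.5 CPM in the ZT8 libraries and 41.6 and 42.9 CPM in the ZT20 libraries (log2 change 0.53 ± 0.04 (SE), adjusted p = 1.12e-09). Hspd1 had 44.7 and 46.5 CPM in the ZT8 libraries and 55.2 and 53.5 CPM in the ZT20 libraries (log2 change 0.20 ± 0.04 (SE), adjusted p = 2.01e-04). The 2 genes lie head to head on chromosome 1 (chr1:55077835-55088243 and chr1:55088132-55091307), and both separated the 4 libraries by time. Hspa9, the mitochondrial Hsp70, did not pass, with 62.6 and 65.9 CPM in the ZT8 libraries and 64.2 and 63.5 CPM in the ZT20 libraries and a log2 change of -0.07 ± 0.03 (SE).

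TRiC subunits Cct2, Cct3 and Cct5 rose, by 0.18 ± 0.04, 0.27 ± 0.04 and 0.27 ± 0.05 (SE), and Tcp1 missed the threshold (0.09 ± 0.04, adjusted p = 0.0520). Bag1, a nucleotide exchange factor of Hsp70, rose by 0.40 ± 0.07. Bag3, the stress-induced BAG protein of selective autophagy, and the small heat shock protein Hspb1 were scarce in neuron-like nuclei, at 1.02 and 1.72 CPM over the 4 libraries, and did not pass (0.32 ± 0.24 and -0.18 ± 0.22).

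Other lists were set beside the members in the same nuclei. Of 20 endoplasmic reticulum chaperones, 16 rose and 2 fell, with a median log2 change of 0.38; Hspa5 (BiP) had 76.3 and 75.5 CPM at ZT8 against 150.4 and 148 at ZT20. Of 57 further cytosolic chaperones and co-chaperones tested (of 62 listed), 17 rose and 9 fell (median 0.07), among them Cryab, a small heat shock protein, higher by 0.81, and Hspa12a, a distant Hsp70, lower by 0.31 (log2 change -0.31). Of 16 other mitochondrial chaperones and proteases, 2 rose and 2 fell (median 0.03). Of transcripts with no role in folding, 12 of 13 mitochondrially encoded genes (median 0.80) and 21 of 22 ribosomal protein genes (median 0.44) rose. Of 18 immediate early genes, 8 rose (median 0.11); in GABAergic-like nuclei 4 of 17 fell, among them Arc and Npas4 (median -0.31). Mitochondrially encoded RNA in neuron-like nuclei summed to 674 and 682 CPM at ZT8 and 1263 and 1214 CPM at ZT20. The part of such RNA in the members' change was not tested.

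Because neurons shifted from thalamic-like to GABAergic-like between times, each type was also fitted on its own. Makeup within a type still differed by time. A GABAergic-like cluster led by Ghr, Esr1 and Pomc held 2 and 1 nuclei at ZT8 against 143 and 139 at ZT20. In the other direction, a GABAergic-like cluster led by Sox6 held 74 and 104 against 10 and 9. In thalamic-like nuclei 16 of 34 members rose and 0 fell (background 10.5% higher and 8.74% lower), with a median of 0.18; no member was lower at an unadjusted p under 0.05, and leaving out ZT8 replicate 1 or ZT20 replicate 1 left 10 calls each. In GABAergic-like nuclei 12 of 33 rose and 0 fell (background 10.6% and 9.40%), with a median of 0.19; at an unadjusted p under 0.05, Hspa9 was lower. Hsp90ab1 rose by 0.29 ± 0.03 (SE) in thalamic-like and 0.33 ± 0.05 in GABAergic-like nuclei, and Hspe1 by 0.44 ± 0.07 and 0.45 ± 0.08. Hsph1 rose by 0.15 ± 0.04 and 0.42 ± 0.06; the difference between the types was not tested. With equal numbers of nuclei per cluster, 14 members were called in thalamic-like nuclei and 2 of 30 tested in GABAergic-like nuclei (346 nuclei per library), where the median was 0.17. Over all neuron-like nuclei the same equalizing left 20 of 35 members called, all of them higher. No shares over all genes are given for these equalized fits, so their counts have no background. Hspa1b was not tested in either type and Hspb1 not in GABAergic-like nuclei, for low counts.

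In oligodendrocyte-like nuclei 15 of 33 members tested rose and 0 fell, against 5.43% of 12123 genes called higher and 4.73% lower; no member was lower at an unadjusted p under 0.05, and DESeq2 called 6 higher and none lower. The members' median log2 change was 0.31. Members summed to 3509.5 and 3590.4 CPM at ZT8 and 4284 and 4388 CPM at ZT20, and mitochondrially encoded RNA to 1637 and 1745 CPM at ZT8 and 2658 and 2609.8 CPM at ZT20. The 6 PVN neuron markers summed to 34.6 and 51.8 CPM at ZT8 and 533 and 396 CPM at ZT20 in the same nuclei, and the part of such RNA in the members' change was not tested. Of the Hsp90 group, 7 of 8 rose. Hsp90ab1 had 434 and 444 CPM in the ZT8 libraries and 584 and 591 CPM in the ZT20 libraries (log2 change 0.45 ± 0.05 (SE), adjusted p = 3.58e-12). St13 rose by 0.58 ± 0.10 (SE), Hspe1 by 0.67 ± 0.12 and Dnajb1 by 0.83 ± 0.23. None of the BAG genes and none of the heat shock factors passed. Hspa1b and Hspb1 were not tested for low counts; Hspa1b gave 2 UMIs in each ZT8 library and 12 and 5 in the ZT20 libraries. Leaving out ZT20 replicate 2 left 9 calls.

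The test of class by time found 2 members whose change differed between oligodendrocyte-like and neuron-like nuclei, of 33 tested (2.79% of 14538 genes were called in this direction and 2.66% in the other). Hspa4l had 87.0 and 96.4 CPM in the ZT8 libraries and 119 and 124 CPM in the ZT20 libraries among oligodendrocyte-like nuclei, against the near-equal levels in neuron-like nuclei given above. The difference of the 2 log2 changes was 0.48 ± 0.10 (SE, adjusted p = 4.43e-04). Chordc1, an Hsp90 co-chaperone with zinc-binding domains whose start carries the 3 overlapping matches printed above, had 79.4 and 74.3 CPM in the ZT8 libraries and 127 and 104 CPM in the ZT20 libraries and differed by 0.44 ± 0.11 (adjusted p = 0.00534). Both ZT20 libraries were above both ZT8 libraries for both genes in oligodendrocyte-like nuclei, while in neuron-like nuclei only Chordc1 rose. The call for Chordc1 was lost without ZT8 replicate 2 or ZT20 replicate 1 (differences 0.38 and 0.30). At an unadjusted p under 0.05, 6 members were higher. Hspa4l has no match of either promoter form in its window, and the relation of promoter letters to these changes was not tested. For the other 31 members a difference was not shown; their differences ran from -0.61 ± 0.57 in Bag3 to 0.61 ± 0.63 in Hspa1a, both scarce.

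Fewer members passed in the smaller classes. In astrocyte-like nuclei 4 of 32 rose (background 3.61%) and 0 fell (2.31%; also 0 at an unadjusted p under 0.05 and 0 by DESeq2): Hspa8 (0.32 ± 0.06, SE), Hsp90ab1 (0.31 ± 0.07), Hsp90aa1 (0.25 ± 0.06) and Dnaja1 (0.33 ± 0.10). Hsp90ab1 had 333 and 316 CPM in the ZT8 libraries and 393 and 382 CPM in the ZT20 libraries. The median over the members was 0.17. In the same nuclei PVN neuron markers summed to 26.05 and 38.8 CPM at ZT8 and 307 and 315 CPM at ZT20, oligodendrocyte markers to 995 and 979.6 CPM at ZT8 and 615 and 654 CPM at ZT20 and mitochondrially encoded RNA to 1614 and 1567 CPM at ZT8 and 2148 and 2224 CPM at ZT20; their part in the 4 calls was not tested. All 4 calls were lost without ZT20 replicate 1 (6 members passed an unadjusted p under 0.05), 2 calls were left without ZT20 replicate 2 or without ZT8 replicate 2, and DESeq2 called 1. Against neuron-like nuclei the time effect of no member differed (0 of 33; 1, Dnajb2, lower at an unadjusted p under 0.05), where 2.35% of genes were called higher and 2.52% lower. In oligodendrocyte precursor (OPC)-like nuclei 1 of 29 members rose (background 0.882%), Dnaja1 (0.67 ± 0.17), and the call was lost without ZT8 replicate 1, ZT8 replicate 2 or ZT20 replicate 1. In microglia-like nuclei 1 of 27 rose (background 0.653%), Hsp90ab1 (0.50 ± 0.12), and the call was lost without ZT8 replicate 2, ZT20 replicate 1 or ZT20 replicate 2. No member was lower in either class at an unadjusted p under 0.05. Not tested for low counts were Hspa1a, Hspa1b and Hspb1 in all 3 classes, Hspa2, Dnajb5 and Bag3 in the latter 2, and Dnaja4 and Dnajb1 in microglia-like nuclei.

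**Figure D2:**
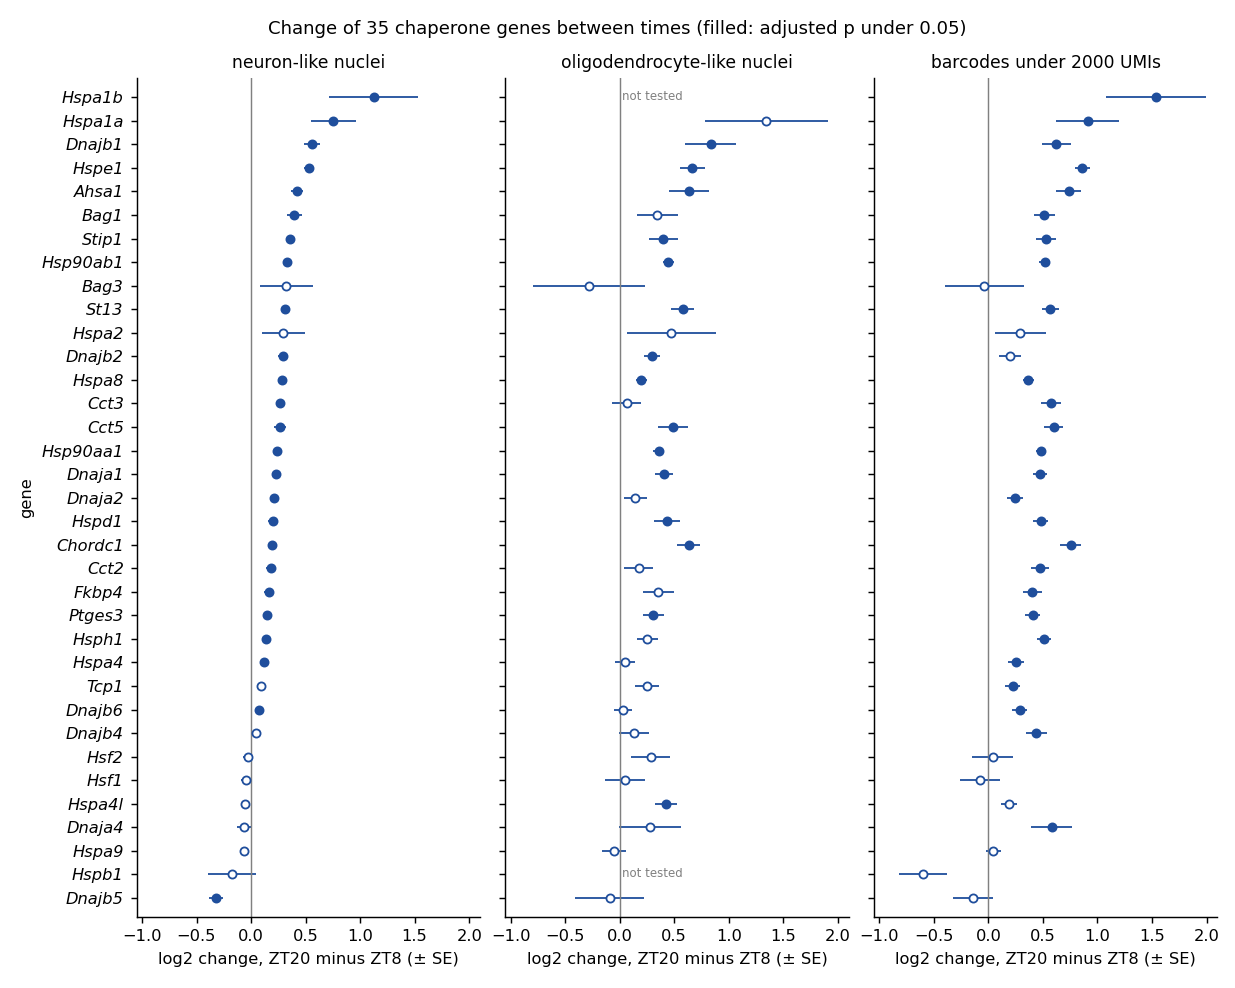
Log2 change (ZT20 minus ZT8) ± SE of the 35 members in neuron-like nuclei, oligodendrocyte-like nuclei and barcodes under 2000 UMIs, ordered by the change in neuron-like nuclei; filled points have an adjusted p under 0.05. Most points lie right of 0 in all 3 panels, with 24, 15 and 26 filled points above 0.

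Over all kept nuclei 27 of 35 members rose and 1 fell (background 24.3% higher and 23.4% lower), with a median log2 change of 0.35; in nuclei of the named classes alone the median was 0.20. Hspd1 had 50.8 and 52.1 CPM in the ZT8 libraries and 68.8 and 71.7 CPM in the ZT20 libraries, Cct5 30.9 and 32.5 CPM in the ZT8 libraries and 44.9 and 45.3 CPM in the ZT20 libraries, and Ahsa1 19.0 and 19.2 CPM in the ZT8 libraries and 28.0 and 29.5 CPM in the ZT20 libraries. Each of the 3 was higher in both ZT20 libraries, with log2 changes of 0.41 ± 0.03, 0.47 ± 0.04 and 0.55 ± 0.05 (SE). Hsph1 rose by 0.34 ± 0.03 and Bag1 by 0.57 ± 0.05. These pooled values include the larger shares at ZT20 of low-UMI barcodes and of kept nuclei outside the named classes. Members stood higher in low-UMI barcodes. Among nuclei of at least 2000 UMIs 25 members rose and 2 fell (background 23.3% and 22.6%), with a median of 0.21.

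Levels also differed between classes at both times. Members summed to 1.83 to 1.91 times as many CPM in oligodendrocyte-like as in neuron-like nuclei of the same library. Of 33 members compared, 22 were higher in all 4 libraries of oligodendrocyte-like nuclei than in all 4 of neuron-like nuclei (42.9% of 12045 genes were) and 5 lower (28.9%). For astrocyte-like nuclei these were 16 and 4 of 32 (43.4% and 24.2% of genes), and for microglia-like nuclei 17 and 2 of 27 (56.2% and 15.9%). The members' median log2 ratio of mean CPM to neuron-like nuclei was 0.44 in astrocyte-like, 0.72 in oligodendrocyte-like and 0.71 in microglia-like nuclei. For all genes compared it was 0.24, 0.20 and 0.65, so the microglia-like medians were close. Nuclei of these classes had medians of 3951, 3035.5 and 2588 UMIs, and neuron-like nuclei of 12080 to 14718 by library. The part of depth in these levels was not tested. The 5 members lower in oligodendrocyte-like nuclei were Dnajb4, Dnajb5, Hsf1, Hsf2 and Hspa4l. Classes are clusters of these nuclei, made without the members' counts, so these levels are a description with no test.

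Hspa8 had a mean level in CPM (± SD over 4 libraries, both times) of 190.2 ± 22.1 in thalamic-like nuclei, 245 ± 16.5 in GABAergic-like nuclei, 359 ± 50.9 in OPC-like nuclei, 477 ± 51.6 in astrocyte-like nuclei, 588 ± 45.9 in oligodendrocyte-like nuclei, 652 ± 77.2 in microglia-like nuclei. Thalamic-like and GABAergic-like nuclei were lowest, and oligodendrocyte-like and microglia-like nuclei differed by less than 1 SD of the latter. Dnajb2 stood highest in oligodendrocyte-like nuclei, at 211 ± 24.1 CPM, against 44.3 ± 8.92 in astrocyte-like nuclei, the next of the 6 classes, and 30.8 ± 4.23 in neuron-like nuclei. Bag3 was at 24.3 ± 3.94 CPM in astrocyte-like and 16.6 ± 13.1 in microglia-like nuclei, whose spread overlapped, and at 1.02 ± 0.20 in neuron-like nuclei. The microglia-like level of Bag3 rests on few UMIs, since 3 UMIs make 8.15 to 9.59 CPM in a library of that class. Hspa2 was at 13.2 ± 2.61 CPM in astrocyte-like, 6.34 ± 1.33 in oligodendrocyte-like and 1.46 ± 0.216 in neuron-like nuclei. Dnajb5 had the reverse order, with 23.1 ± 2.18 CPM in thalamic-like and 10.2 ± 1.25 in oligodendrocyte-like nuclei. The heat map of levels by class shows all 35 members.

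Hspb1, the small heat shock protein that caps actin filaments, stood highest in endothelial-like nuclei. In these (84, 98, 47 and 50 nuclei per library) it had 97.4 and 105 CPM in the ZT8 libraries and 371 and 311 CPM in the ZT20 libraries, from 40, 53, 67 and 73 UMIs. The ZT20 values lay above the ZT8 values. The class joined 2 clusters, and the one led by Eln, Mgp and Mecom gave 19 and 23 of its nuclei at ZT8 but 2 and 1 at ZT20, so its makeup differed by time. This class was not tested, because 1 library held fewer than 50 such nuclei. In neuron-like nuclei Hspb1 stood at 1.72 ± 0.404 CPM. Among barcodes under 2000 UMIs it had 32.2 and 20.5 CPM in the ZT8 libraries and 15.9 and 17.3 CPM in the ZT20 libraries, the opposite order, where its change missed the threshold (log2 change -0.60 ± 0.22 (SE), adjusted p = 0.0528), and the 8 endothelial markers in those barcodes summed to 287 and 257 CPM at ZT8 and 118 and 117 CPM at ZT20.

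**Figure D3:**
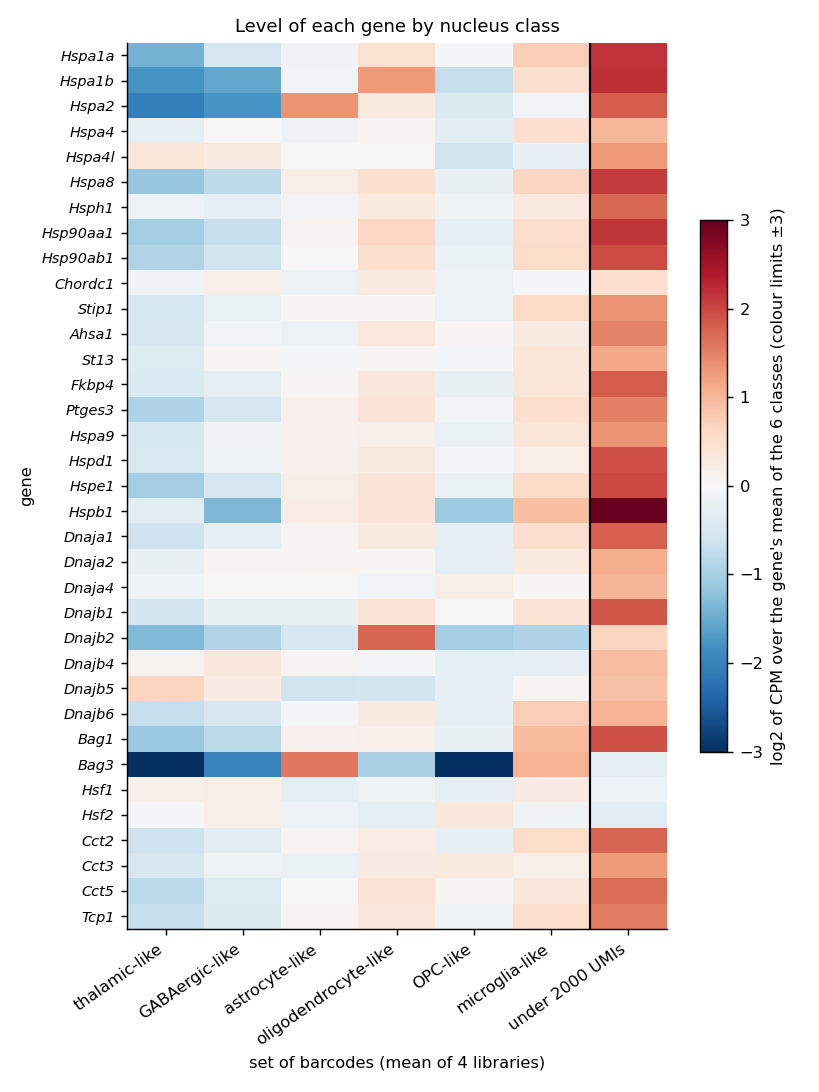
Heat map of the members' levels in 6 nucleus classes and in barcodes under 2000 UMIs, as log2 of the mean CPM of 4 libraries over the gene's mean of the 6 classes; red is higher. Neuron columns are mostly blue, the oligodendrocyte-like and microglia-like columns mostly pale red, and the column of low-UMI barcodes is red for all but Bag3, Hsf1 and Hsf2.

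Barcodes under 2000 UMIs, which can hold free RNA as well as nuclei of low yield, were the richest in chaperone RNA. Members summed to 8305 and 8595 CPM at ZT8 and 10876 and 11022 CPM at ZT20 in them, and to 2047 and 2089.9 CPM at ZT8 and 2429 and 2413 CPM at ZT20 in kept nuclei of at least 2000 UMIs, a ratio of 4.06 to 4.57 within a library. 33 of 35 members were higher in the low set and 2 lower (edgeR with the library as a block), against 34.5% and 37.3% of 20408 genes. The members' median log2 difference was 1.73; that of all genes was -0.07. Most low barcodes met the nucleus filter (95.3 to 98.0% per library had at least 500 genes and the other criteria), so the set is not free RNA alone.

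Hspa1b, Hspa1a, Hspa2 and Hspa8 had the largest differences. Hspa8 had 1575, 1650.4, 1948 and 2045 CPM in the low sets and 212, 222, 264 and 265 in the high sets (ZT8 replicates 1 and 2, then ZT20 replicates 1 and 2), a log2 difference of 2.71 ± 0.06 (SE, adjusted p = 1.63e-40). Hspa1a had 8.19, 8.95, 18.0 and 13.5 CPM in the low sets and 1.27, 1.01, 1.92 and 2.00 in the high sets (2.78 ± 0.22). Hspa1b, from 4 to 38 UMIs per low set, had a difference of 2.99 ± 0.33 and Hspa2 of 2.72 ± 0.18. Every low set was above its own high set for these 4 genes, with fitted folds of 6.53 to 7.93. Hsp90aa1 (2.64 ± 0.06), Bag1 (2.51 ± 0.08), Hspb1 (2.51 ± 0.17), Hspe1 (2.43 ± 0.07) and Hsp90ab1 (2.38 ± 0.06) followed. J proteins had a median of 1.01 and TRiC subunits of 1.90.

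The 2 heat shock factors were lower in low-UMI barcodes, the only members to be so. Hsf1 had 34.4, 27.9, 30.2 and 26.7 CPM in the low sets and 37.6, 36.3, 36.5 and 37.4 in the high sets (-0.52 ± 0.10, adjusted p = 7.49e-06). Hsf2 had 38.2, 28.4, 37.5 and 28.8 CPM in the low sets and 40.5, 41.7, 41.6 and 42.4 in the high sets (-0.53 ± 0.10, adjusted p = 5.31e-06). In all 4 libraries both genes were below their level in larger nuclei. The smallest positive differences were those of Chordc1 (0.29 ± 0.09) and Dnajb5 (0.41 ± 0.12), and both missed the threshold when the high set was limited to neuron-like nuclei (0.14 and 0.14).

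**Figure D4:**
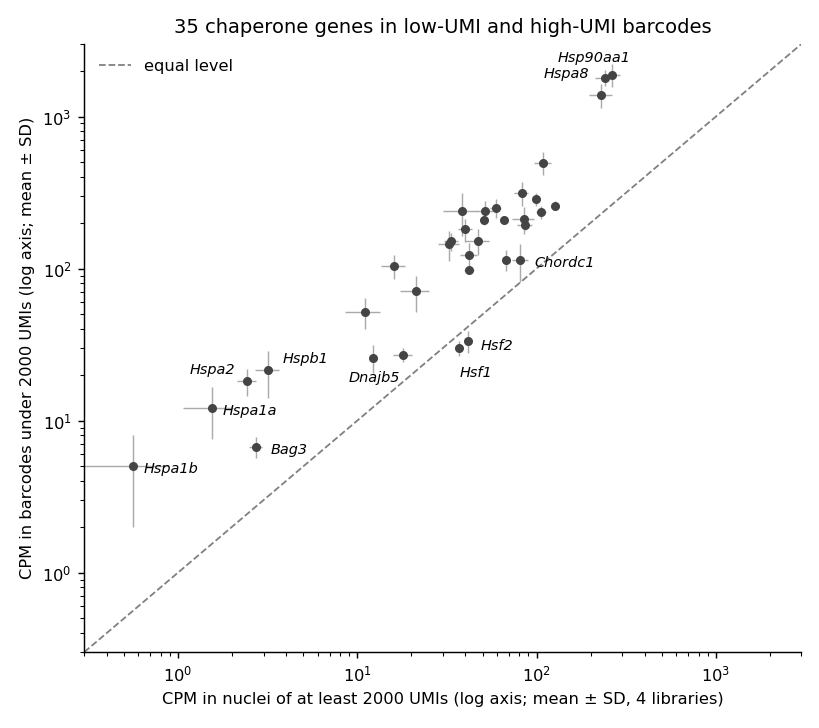
Mean CPM ± SD over 4 libraries of each member in barcodes under 2000 UMIs (y) against kept nuclei of at least 2000 UMIs (x), both on log axes; the dashed line marks equal levels. Points lie above the line except Hsf1 and Hsf2, and Hspa1b, Hspa1a, Hspa2, Hspa8 and Hsp90aa1 lie farthest above it.

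The low and high sets differed in cell makeup and in other RNA. The 8 oligodendrocyte markers summed to 5456 and 4926 CPM at ZT8 and 2927 and 2906 CPM at ZT20 in low and 1675 and 1734 CPM at ZT8 and 1134 and 1081 CPM at ZT20 in high sets. The 7 neuron markers summed to 7824 and 8421 CPM at ZT8 and 7657 and 7628 CPM at ZT20 in low and 21488 and 21402 CPM at ZT8 and 21479 and 21819.7 CPM at ZT20 in high sets. All 13 mitochondrially encoded genes (median log2 difference 2.45) and all 22 ribosomal protein genes (2.58) were higher in low sets, as were 19 of 20 endoplasmic reticulum chaperones (1.17) and 12 of 20 immediate early genes (1.43). When low barcodes outside the named classes were set against oligodendrocyte-like nuclei, the class with high chaperone levels, 29 members were higher and 4 lower, with a median of 0.73. No share or median over all genes is given for this comparison, so these counts have no background. Dnajb2, Chordc1 and Bag3 then had the opposite sign (-1.76, -0.27 and -0.0126), and the difference of Hspa1b was 0.48 and no longer passed.

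Within low-UMI barcodes 26 of 35 members rose from ZT8 to ZT20 and 0 fell (background 12.2% higher and 11.8% lower); at an unadjusted p under 0.05 Hspb1 was lower, and DESeq2 called 16 higher and none lower. The median log2 change was 0.47. Hspe1 had 180.1 and 168 CPM in the ZT8 libraries and 308 and 299.6 CPM in the ZT20 libraries (log2 change 0.86 ± 0.07 (SE), adjusted p = 1.47e-08). Chordc1 had 80.8 and 92.6 CPM in the ZT8 libraries and 142 and 139.8 CPM in the ZT20 libraries (log2 change 0.75 ± 0.10 (SE), adjusted p = 4.75e-06), and Ahsa1 57.9 and 51.0 CPM in the ZT8 libraries and 87.6 and 86.5 CPM in the ZT20 libraries (log2 change 0.74 ± 0.12 (SE), adjusted p = 5.93e-05). All 3 separated the libraries by time, as did Hsp90ab1 (0.51 ± 0.05, SE) and Hsp90aa1 (0.48 ± 0.05). All 8 Hsp90 genes and all 4 TRiC genes rose, and Hsf1, Hsf2, Hspa9 and Dnajb5 had changes of -0.08 ± 0.18, 0.04 ± 0.18, 0.05 ± 0.07 and -0.14 ± 0.18 that did not pass. In these barcodes the PVN markers summed to 112 and 199.98 CPM at ZT8 and 1582 and 1497 CPM at ZT20 and the 8 mural markers to 551 and 522 CPM at ZT8 and 72.6 and 65.7 CPM at ZT20; the oligodendrocyte sums are given above. The 2 times also filled different clusters of low-UMI barcodes that had passed the nucleus filter. An unnamed cluster had a median of 895 UMIs, was led by Oxt and had Hsp90aa1 and Hspa8 among its 10 leading genes. It held 146 and 244 barcodes at ZT8 against 2795 and 3842 at ZT20. Another, with a median of 827 UMIs, with Calb2 and the same pair of members among its 10 leading genes, held 1259 and 1314 against 95 and 107. The part of this makeup in the members' change was not tested. With low barcodes outside the named classes alone, 23 members were called higher and 1 lower, with no share over all genes given beside them.

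Members with short genes stood highest in low-UMI barcodes. Across the 35 members Spearman's rho of the log2 difference with gene length was -0.75, and across 16021 protein-coding genes it was -0.59; genes share the libraries and are not independent, so no p is given. Hspb1 (1.65 kb), Hspa2 (2.76 kb), Hspa1b (2.80 kb), Hspa1a (2.97 kb) and Hspe1 (3.18 kb) are the shortest, with differences of 2.43 to 2.99. Hspa1a and Hspa1b have no intron. Set against all protein-coding genes in the same one of 4 equal bins of gene length, 11 of 13, 14 of 15, 5 of 6 and 1 of 1 members were above the bin's median, from the shortest to the longest bin. In the shortest bin the members' median difference was 2.38 against 1.33 for all genes. Dnajb6, at 82.4 kb the longest member, had a difference of 1.34 ± 0.07 in a bin with a median of -0.86. Hsf1 and Hsf2 were below the median of theirs. The change between times in neuron-like nuclei also went with length across the members (rho -0.44) and with the low minus high difference (rho 0.58); the part of low-UMI or free RNA in that change was not tested.

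**Figure D5:**
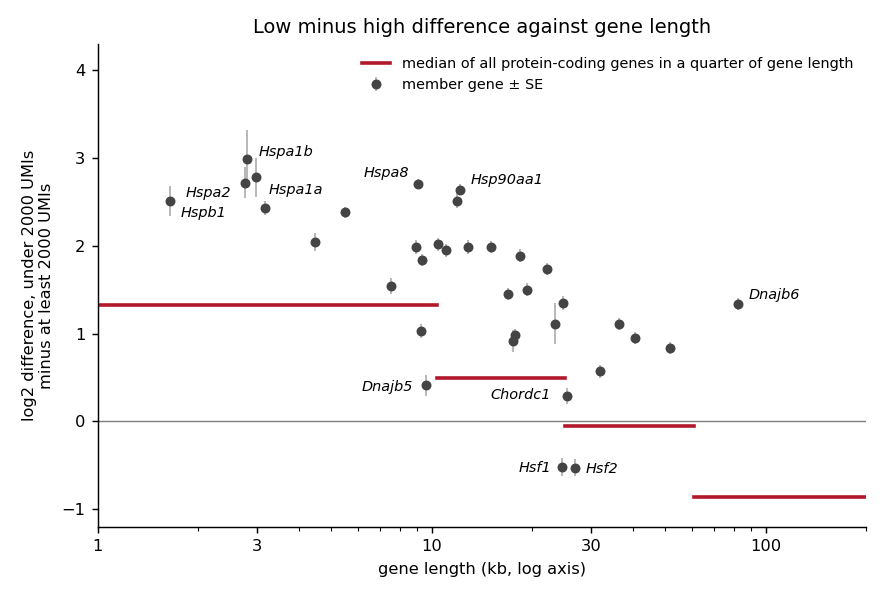
Log2 difference ± SE between barcodes under 2000 UMIs and nuclei of at least 2000 UMIs (y) against gene length in kb (x, log axis) for the 35 members; red lines are the medians of all protein-coding genes in each of 4 equal bins of gene length, drawn from 1 to 200 kb. Members fall with length as all genes do, and most lie above the line of their bin.

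The share of neuron-like nuclei with at least 1 UMI was also compared at equal depth. After thinning each nucleus to 2000 UMIs, Hsp90ab1 was found in 31.5 and 31.9% of nuclei of the ZT8 libraries and 39.4 and 39.5% of the ZT20 libraries (unthinned 89.5, 90.3, 93.2 and 92.6%). Hspe1 was found in 5.34 and 5.85% against 9.12 and 8.74% (unthinned 32.5, 35.8, 42.1 and 41.7%). Both ZT20 shares were above both ZT8 shares in 23 of 35 members (30.3% of 19500 genes) and below in 1 (22.6%), Hsf2. Without thinning, which leaves the deeper ZT8 libraries at an advantage, these counts were 15 (20.2%) and 6 (46.2%). An exact permutation test of 2 against 2 libraries cannot go below p = 0.333. No class was set as lacking these genes, so no level of background RNA is given beside these shares.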

How the data were processed

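Nuclei from micropunched PVN tissue were profiled with 10x Genomics 3' v3 chemistry in 2 libraries per time. The deposited values are raw UMI counts for each gene in each barcode. Per the file headers they were made by the authors with Cell Ranger 7.0.0, and the submitters' processing notes also name STAR 2.6 and mm10; how intronic reads were counted and barcodes called is not given in the sources used here. The deposited tables of barcodes and features hold names only. Members and lists were chosen with earlier results of these data known.

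Barcodes with 500 or more genes and no more than 5% of UMIs from mitochondrial genes were kept as nuclei, and the highest Scrublet scores (0.8% of nuclei per 1000 nuclei, 326 to 702 per library) were removed, because the automatic threshold marked at most 1 nucleus per library. Members and the other listed genes were left out of clustering (3000 variable genes, 40 principal components, 20 neighbours, Leiden resolution 1, scanpy 1.11.5). Of 35 clusters, those whose markers passed set scores (0.7, or 0.6 for neuron types, set after clusters were seen) were named.

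Counts were summed per library and set. edgeR 4.0.16 (R 4.3.3; filterByExpr, TMM, robust quasi-likelihood F test, two-sided) compared ZT20 with ZT8, low with high barcodes (library as block) and classes by time, with Benjamini-Hochberg adjustment over all genes tested; DESeq2 1.42.0 was an alternative. Other alternatives were RLE factors, no low-count filter, stricter nucleus filters, kept doublets, named classes only, equal nuclei per neuron cluster, thinning, a UMI limit of 1000, the replicate block and leaving out each library. The scripts were tested on simulated data. Genes given in full were, by rule, up to 8 members per direction called in neuron-like nuclei with the smallest p and no overlap of libraries, up to 5 more called in all kept nuclei, those with a class by time term, and the 4 largest and 4 smallest low minus high differences. Gene positions are from GENCODE M21.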

Additional observations from a re-analysis of the deposited data

Results flagged for a closer look

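Of the members' changes, 2 differed between nucleus classes by a test of the difference itself, the class by time term of edgeR's quasi-likelihood fit. In Hspa4l the ZT20 minus ZT8 log2 change in oligodendrocyte-like nuclei exceeded that in neuron-like nuclei by 0.48 ± 0.10 (SE; adjusted p = 4.43e-04), and it stayed between 0.42 and 0.54 under every alternative run for it. In Chordc1 it exceeded it by 0.44 ± 0.11 (adjusted p = 0.00534), and ranged from 0.30 to 0.54. Both genes were higher at ZT20 in both oligodendrocyte-like libraries.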

How the results depend on the processing

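Of the calls of members between times, 24 of 28 in all kept nuclei, 16 of 25 in neuron-like nuclei, 6 of 15 in oligodendrocyte-like nuclei and 15 of 26 in low-UMI barcodes held under every alternative run, as did 30 of 35 differences between low and high sets; for the calls that did not hold, the cause was not tested. With DESeq2, 1 member was called in astrocyte-like nuclei in place of 4, 6 in oligodendrocyte-like nuclei in place of 15, and 16 in low-UMI barcodes in place of 26; in neuron-like nuclei it called 17 in place of 25. Leaving out 1 library at a time gave 0 to 4 calls in astrocyte-like nuclei, 9 to 12 in oligodendrocyte-like nuclei and 1 to 3 members with a class by time term; a lone library is then assumed to vary like the others. Without thinning, 15 members in place of 23 had both ZT20 shares above both ZT8 shares in neuron-like nuclei. An alternative chosen after seeing the data set low-UMI barcodes outside named classes against oligodendrocyte-like nuclei. It gave 3 of the 35 low minus high differences the opposite sign: Chordc1 (-0.27), Dnajb2 (-1.76) and Bag3 (-0.0126), the last with almost no difference. Libraries with the same replicate number did not deviate together (correlations of -0.01 in neuron-like and -0.05 in all kept nuclei), and the replicate block gave 25 calls in neuron-like and 28 in all kept nuclei, as without it. The astrocyte-like, OPC-like and microglia-like classes held 122 to 429 nuclei per library, and their number limits the precision there.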
